A study of Drosophila melanogaster with 42 samples.

Results

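The step from time point P4 to time point A1 was followed in whole control animals of Drosophila melanogaster. Its members are the 3 control libraries labelled P4 and the 3 labelled A1, which are 6 of the 42 libraries of the series. They were chosen by their genotype and time point labels alone, and all genes were compared. The series covers a control genotype and an ERR mutant, a mutant of the fly estrogen-related receptor, at 7 time points (WPP, then P1 to P4, then A1 and A6), with 3 libraries for each genotype and time point.

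Both groups carried the control genotype and were whole flies staged from WPP. Every animal, control or mutant, was heat-treated on day 4 and again on day 5 AEL. An hsFLP transgene, a heat-inducible recombinase, was present in 1 genotype and absent from the other, and the labels do not say which carries it. The labels also give no sex and no age in hours or days at P4 and A1, and leave unsaid whether replicates stem from separate animals or cultures. The p-values therefore measure the spread between replicate libraries, which may be technical. That spread was estimated from all 42 libraries of the series. Below, P is read as pupal and A as adult, which the labels do not spell out.

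At the end of metamorphosis the fly inside the pupal case secretes its adult cuticle and finishes its muscles, nerves and eyes. A pulse of the steroid hormone ecdysone rises and falls during this time, and the nuclear receptor ftz-f1 is known as a factor of the falling phase. Peptide hormones then trigger ecdysis, the escape from the old cuticle, and bursicon sets off the expansion of the wings and the hardening and darkening of the cuticle. The young adult still holds larval fat body cells, which die in the first days, while its own gut, fat body and reproductive glands come into use.

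The 6 libraries held between 4670549 and 6703602 counts, within the range of 4308848 to 7737140 over all 42. Levels are in CPM, counts scaled to library size with TMM factors, and groups are given as mean ± SD (n = 3 libraries) unless single libraries are listed. The gene ERR (FBgn0035849; dm6 chromosome 3L, 8183361 to 8186671 on the minus strand) stood at 18.5, 26.5 and 25.3 CPM in the P4 libraries and 19.1, 17.3 and 18.9 CPM in the A1 libraries. The groups overlapped and ERR was not called (log2 fold change -0.34, SE 0.18, adjusted p = 0.136), although it was called when P4 replicate 1 was left out (adjusted p = 0.0362). In the mutant libraries ERR was at 8.86 ± 0.993 CPM at P4 and 7.46 ± 0.958 CPM at A1.

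The P4 libraries differed from each other in RNAs that mark the sexes. The oocyte RNA osk was at 1.97, 9.52 and 30.4 CPM in the P4 libraries and 0, 0 and 0 CPM in the A1 libraries. P4 replicate 3 was highest and replicate 1 lowest, and none of the A1 libraries held a single osk count. lncRNA:roX1, an RNA of the male dosage compensation complex, was at 456, 365 and 207 CPM in the P4 libraries and 333, 362 and 339 CPM in the A1 libraries. Here P4 replicate 1 was highest and replicate 3 lowest, and the A1 libraries lay in between, with no call (log2 fold change 0.01, SE 0.55). The summed level of 31 genes of testis and sperm was 12784, 10076 and 6824 CPM at P4 and 12885, 12669 and 12521 CPM at A1. P4 replicate 1 lay within the range of the A1 libraries and the other P4 libraries lay below it. The yolk protein genes Yp1 and Yp2, which mark mature females, were at or near 0 in all 6 libraries. For this reason the counts that lead each result were repeated with P4 replicate 1 as the only P4 library, a choice made after these values were seen.

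**Figure D1:**
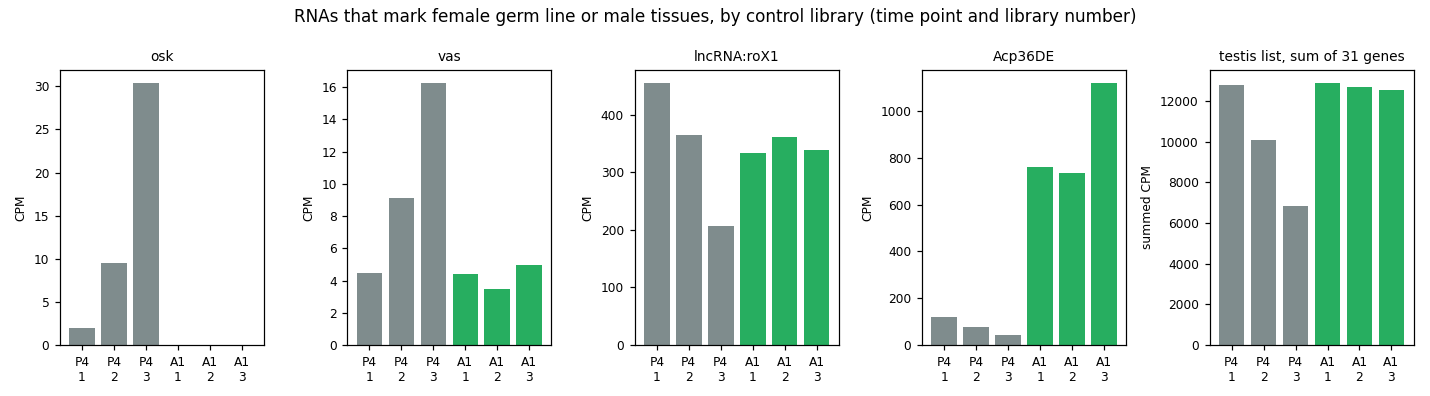
Level of osk, vas, lncRNA:roX1 and Acp36DE in CPM, and the summed CPM of 31 testis genes, in each control library; each bar is 1 library. P4 replicate 3 had the most osk and vas and the least lncRNA:roX1 and testis RNA of the P4 libraries, while the 3 A1 libraries had no osk and like levels of testis RNA.

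Of 13672 genes tested with edgeR, 5322 (38.9%) were called at an adjusted p under 0.05. At A1, 2220 genes (16.2%) were higher and 3102 (22.7%) lower. These 2 shares are the background for every gene list below, and the lists were chosen with earlier results of these data known. The 3 P4 and 3 A1 libraries did not overlap for 3049 genes (22.3%) with A1 higher and 3544 (25.9%) with A1 lower. The excess of lower calls depended on the scaling: 2562 genes were higher and 2706 lower with DESeq2's size factors in edgeR, 2543 and 2687 with the deposited factors, and 2551 and 2640 with DESeq2. At least 2-fold changes were called for 2542 genes (18.6%), of which 1377 (10.1%) were higher and 1165 (8.52%) lower. Large changes were mostly rises: 588 genes rose and 218 fell by at least 8-fold, and 212 rose and 65 fell by at least 64-fold. The median log2 fold change of all genes was 0.0259, and 0.107 with DESeq2's size factors or the deposited factors. With P4 replicate 1 as the only P4 library, 3656 genes were called, 1800 higher and 1856 lower. Of these, 3535 were among the 5322, all in the same direction, but the fits share P4 replicate 1 and all A1 libraries. In that repeat the lone P4 library is assumed to vary like the other groups, which supply the spread. In whole animals, a lower level can mean fewer cells of a type or less RNA per cell, and these cannot be told apart.

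**Figure D2:**
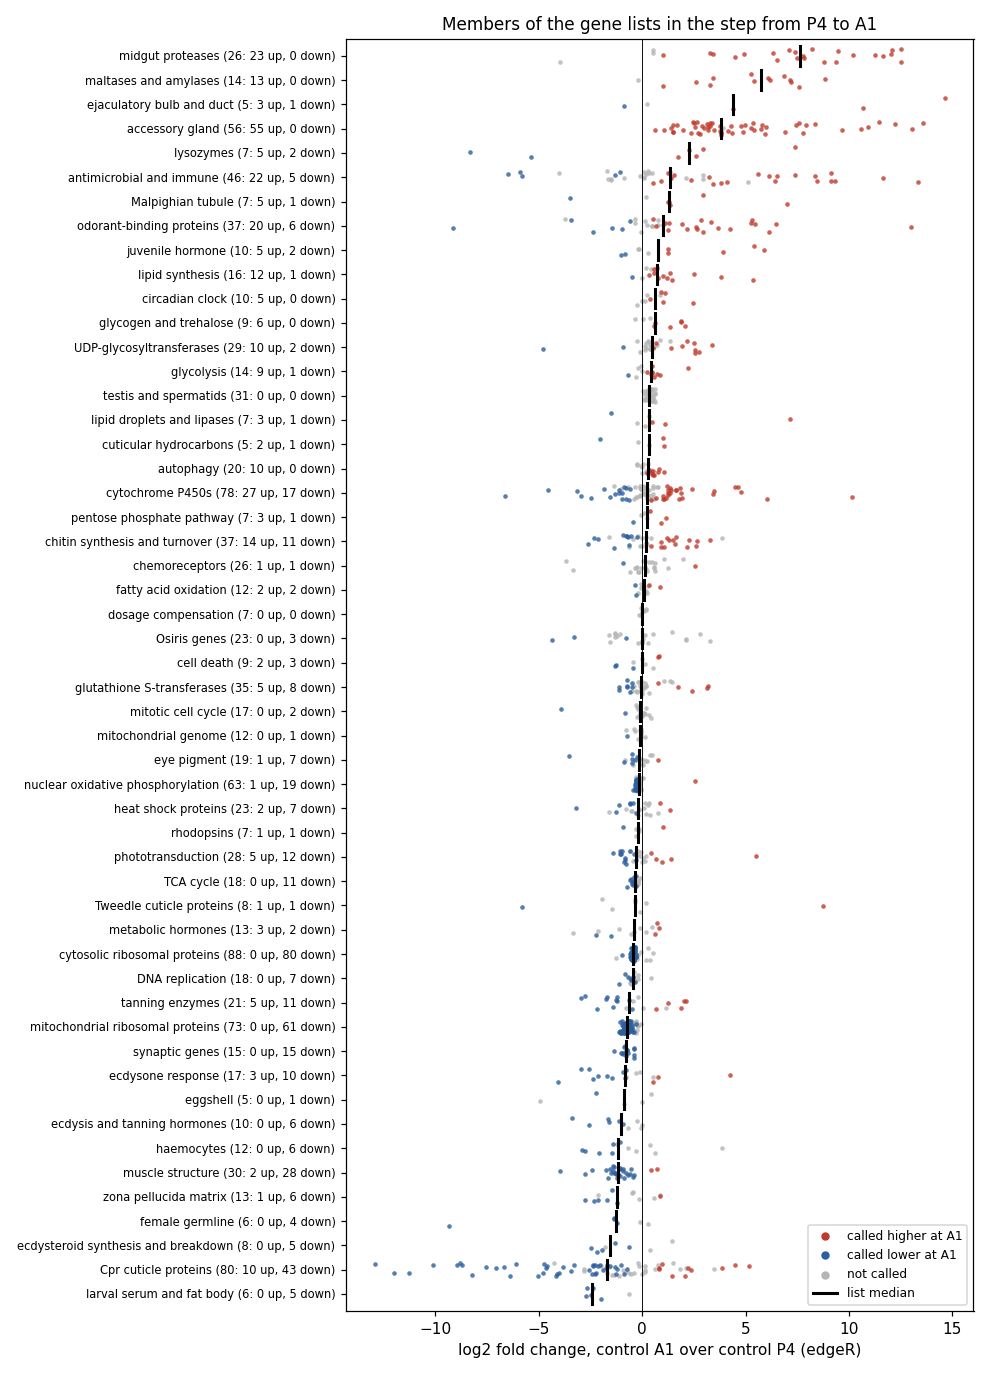
Each point is 1 gene of a list, placed by its log2 fold change from control P4 to control A1; red points were called higher, blue points lower, grey points were not called, and the black bar is the list's median. Midgut enzymes and accessory gland genes lie far to the right, with medians of 7.63 and 3.82, while most cuticle, muscle and ribosomal protein genes lie left of 0.

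Cuticle protein genes held some of the deepest falls of the step. Of 80 tested genes of the Cpr group, named after the chitin-binding motif that most of these structural cuticle proteins share, 43 fell, 10 rose and 27 were not called. The median log2 fold change was -1.72. Their summed level went from 20438 ± 27.1 CPM to 4913 ± 332 CPM. Cpr64Aa (chromosome 3L, 4207838 to 4209178 on the minus strand) had the most counts of them at P4, with 6429, 6119 and 6334 CPM in the P4 libraries and 22.2, 26.3 and 13.1 CPM in the A1 libraries. The groups were far apart and the libraries within each were close (306-fold lower; log2 fold change -8.26, SE 0.29, adjusted p = 2.3e-20). Its control means were 3.06 CPM at P2, 4883 at P3 and 0.155 at A6, so its high levels were at P3 and P4.

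Cpr30F stood at 842, 769 and 559.7 CPM in the P4 libraries and 0, 0.204 and 0 CPM in the A1 libraries. That is a single count over all A1 libraries, and the ratio of counts was 10311-fold (95% exact interval 1850.2 to 407280). At P3 its mean was 3852 CPM, higher than at P4. Ccp84Ae differed in timing: it was at 0.206 CPM at P3, 373 at P4 and 0.0680 at A1, so its high level was at P4. Cpr30B fell from 409.6 to 0.147 CPM, Cpr64Ad from 418 to 0.351 CPM and Ccp84Ag from 148 to 1.41 CPM. The gene resilin encodes the rubber-like protein of elastic cuticle. It was at 382, 386 and 394 CPM in the P4 libraries and 3.96, 6.53 and 3.23 CPM in the A1 libraries, without overlap (84.7-fold lower; log2 fold change -6.39, SE 0.23, adjusted p = 2.3e-20). TwdlT, of the Tweedle family of cuticle proteins, fell from 282 to 4.91 CPM after a mean of 5265 CPM at P3. TwdlS was the Tweedle gene that rose. It had no count at P4 and 9.16 CPM at A1, at least 47.5-fold higher when P4 is set at a floor of 3 counts over the group (adjusted p = 5.5e-06). DESeq2 did not call TwdlS (adjusted p = 0.188).

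Among the largest rises in CPM were Acp1, CG7203 and Nplp3. Acp1, adult cuticle protein 1, stood at 583, 579.9 and 578 CPM in the P4 libraries and 3114, 3523 and 3183 CPM in the A1 libraries (5.64-fold higher; log2 fold change 2.50, SE 0.23, adjusted p = 1.1e-09). It was at 433 CPM at P3 and 0.990 at A6, so its highest control mean was at A1. CG7203, an unnamed gene, was also higher at A1 than at P3, P4 or A6, with 22.96, 421, 3278 and 12.4 CPM at P3, P4, A1 and A6. Nplp3, a precursor of neuropeptide-like peptides, went from 7.17, 10.5 and 17.5 to 4032, 4549 and 4757 CPM (379-fold higher; log2 fold change 8.58, SE 0.34, adjusted p = 2.9e-19), and was at 80.3 CPM at A6. Among unnamed genes that fell, CG14961 went from 6796 to 9.66 CPM and CG7214 from 9103 to 1205 CPM. CG13051 was at 388, 367 and 378 CPM at P4 and had no count at A1, which makes it at least 1776-fold lower, and CG13674 dropped from 736 CPM to a single count.

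**Figure D3:**
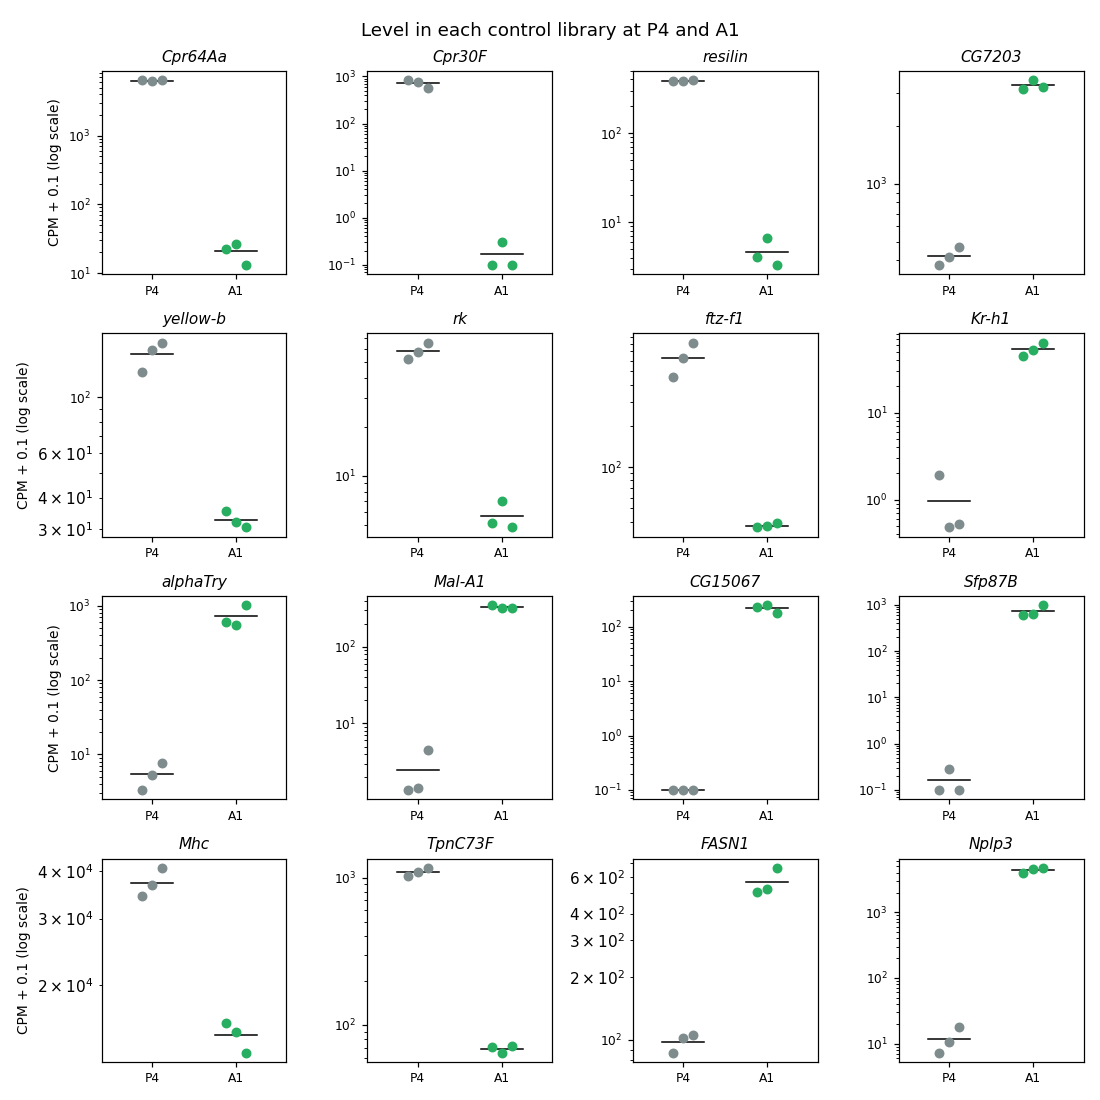
CPM plus 0.1 on log axes for 16 genes in the 3 P4 and 3 A1 control libraries; points are libraries and lines are means of the plotted values. In each panel the P4 and A1 libraries are separate. Over all 13672 genes tested this held for 22.3% with A1 higher and 25.9% with A1 lower.

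Genes for the chitin layer and for tanning went both ways. Of 37 genes of chitin synthesis and turnover, 14 rose and 11 fell. The risers include Gfat1 (59.4 to 187 CPM) and mmy (66.5 to 162 CPM), enzymes that make the sugar donor for chitin, kkv (78.6 to 239 CPM), the chitin synthase of the epidermis, and Cht5 (24.8 to 245 CPM), a chitinase. Idgf2 and Idgf4, secreted growth factors related to chitinases, fell from 474 to 76.7 CPM and from 1164 to 261 CPM. Only 5 rather than 11 genes of this list were called lower with P4 replicate 1 alone.

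Tanning enzymes use dopamine and its derivatives to harden and colour the cuticle. Of 21, 11 fell and 5 rose. The yellow-family genes yellow-f, yellow-b and yellow-c fell from 26.8 to 3.90 CPM, from 149 to 32.5 CPM and from 339.6 to 103 CPM. The dopamine-making enzymes ple (tyrosine hydroxylase) and Ddc (dopa decarboxylase) fell from 1939.7 to 248 CPM and from 219 to 64.2 CPM. Among the genes that rose was AANAT1, which acetylates dopamine, with 48.4, 48.9 and 46.9 CPM in the P4 libraries and 191, 181 and 220.4 CPM in the A1 libraries (4.11-fold higher; log2 fold change 2.04, SE 0.10, adjusted p = 2.4e-17). The gene b makes beta-alanine and e joins it to dopamine for the pale tanning agent. They rose with log2 fold changes of 1.89 and 1.24, and e was not called without A1 replicate 1 (adjusted p = 0.116) or with P4 replicate 1 alone (adjusted p = 0.12). Of 13 matrix proteins with a zona pellucida domain, which tie the cuticle to the epidermal cell, 6 fell and 1 rose. The rise was lost without P4 replicate 1 or 2 or A1 replicate 2, in the fit on the 21 control libraries and with P4 replicate 1 alone. Falls numbered 4 without any 1 of the P4 libraries or without A1 replicate 2 or 3, and also in the fit on the 6 libraries and with P4 replicate 1 alone. Among them zye fell from 256 to 38.1 CPM and pio from 505 to 184 CPM.

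Of 10 genes for ecdysis and tanning hormones and their receptors, 6 fell and none rose. The gene rk encodes the bursicon receptor. It stood at 52.01, 57.3 and 65.7 CPM in the P4 libraries and 5.06, 6.94 and 4.74 CPM in the A1 libraries, without overlap (10.5-fold lower; log2 fold change -3.38, SE 0.21, adjusted p = 8.2e-15), and its mean rose from 7.82 CPM at P2 to 40.5 at P3 before P4. The bursicon subunits Burs and Pburs fell from 2.72 to 0.843 CPM and from 3.03 to 0.487 CPM, and Burs was not called without P4 replicate 1 (adjusted p = 0.0791), A1 replicate 1 (adjusted p = 0.0785) or A1 replicate 3 (adjusted p = 0.084). CCAP-R and ETHR, receptors of crustacean cardioactive peptide and of ecdysis-triggering hormone, had log2 fold changes of -1.58 and -1.12. Neither was called with P4 replicate 1 alone, where the log2 fold change was -1.38 for CCAP-R (adjusted p = 0.08) and -0.66 for ETHR (adjusted p = 0.215). The hormone genes Eh, ETH and CCAP, for eclosion hormone and these peptides, were not called, with log2 fold changes of -0.04, -0.03 and -0.25. The sign for Eh and ETH turned with the scaling.

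Of 17 genes of the ecdysone response, 10 fell and 3 rose, while 1 was called higher without A1 replicate 1 or with P4 replicate 1 alone. ftz-f1 (chromosome 3L, 18750607 to 18801309 on the minus strand) was at 459, 624 and 812 CPM in the P4 libraries and 36.3, 37.1 and 38.8 CPM in the A1 libraries. P4 replicate 3 was highest, and all P4 libraries lay above all A1 libraries (16.9-fold lower; log2 fold change -4.08, SE 0.22, adjusted p = 2.3e-16). The mean at P3 was 136 CPM. Eip74EF, an ETS-family regulator, fell from 416 to 70.9 CPM, and EcR, the ecdysone receptor, from 90.8 to 28.2 CPM. The nuclear receptors Hr3 and Hr4 fell, with log2 fold changes of -2.14 and -2.38. Blimp-1, a repressor that delays ftz-f1 in the prepupa, went the other way, at 2.69, 4.00 and 4.65 CPM in the P4 libraries and 73.5, 85.3 and 56.8 CPM in the A1 libraries (19.02-fold higher; log2 fold change 4.25, SE 0.25, adjusted p = 2.0e-15). Of 8 genes that make or break down ecdysone, 5 fell, among them phm (3.26 to 0.567 CPM) and shd (16.4 to 4.31 CPM), P450 enzymes of ecdysteroid synthesis. Of this list 2 were called lower with P4 replicate 1 alone.

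Of 10 juvenile hormone genes, 5 rose, 2 fell and 3 were not called. Kr-h1, a zinc finger factor induced by this hormone, was at 1.79, 0.381 and 0.422 CPM in the P4 libraries and 45.1, 52.8 and 63.5 CPM in the A1 libraries (62.2-fold higher; log2 fold change 5.88, SE 0.44, adjusted p = 1.1e-12). It had been at 115.4 CPM at WPP and under 1 CPM at each time point from P1 to P4. The hormone receptor gce rose from 23.8 to 55.6 CPM, and Met, its paralog, was not called (log2 fold change -0.23, adjusted p = 0.209). jhamt, the enzyme of the last step of synthesis, had 1 count at P4 and 50 at A1 (adjusted p = 1.5e-05). The genes for breakdown were split: Jheh3 and Jhedup rose from 22.2 to 53.03 CPM and from 1.97 to 28.8 CPM, and the esterase Jhe fell from 30.3 to 15.1 CPM.

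**Figure D4:**
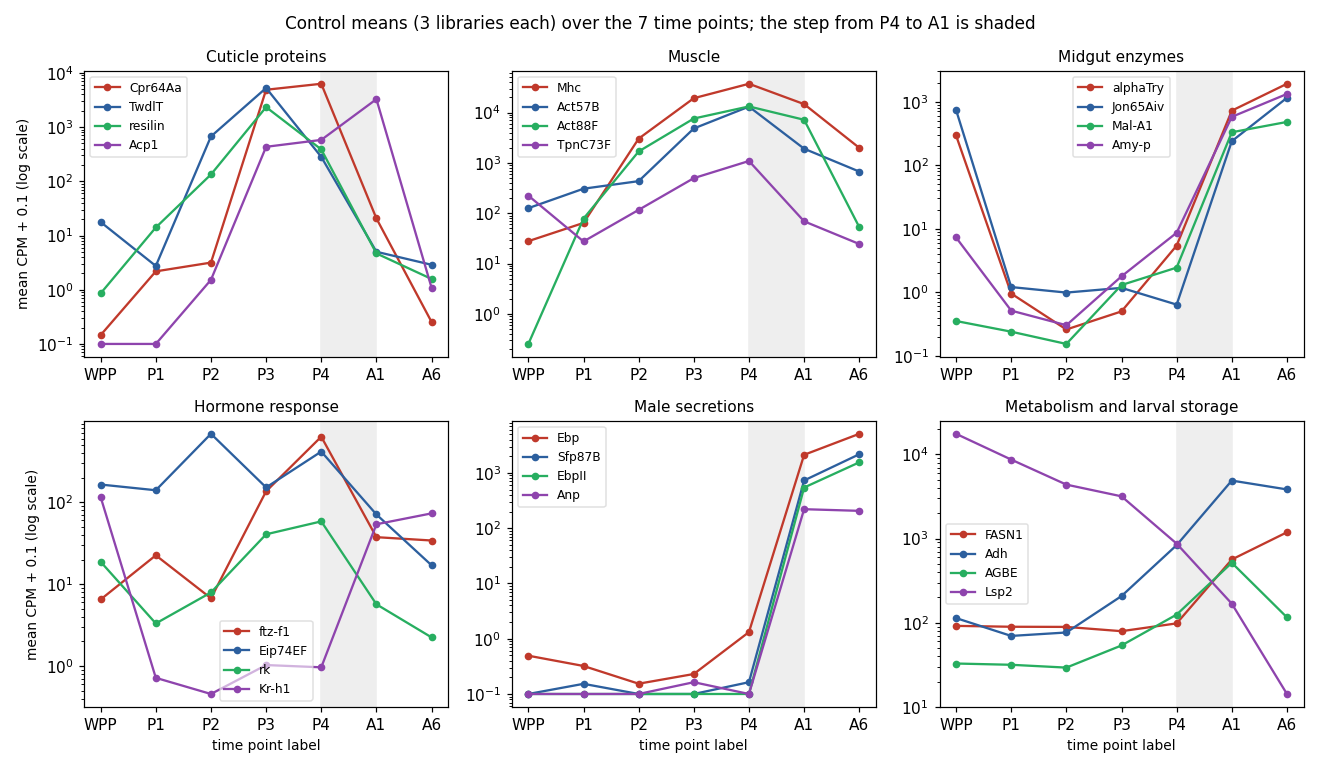
Mean CPM plus 0.1 on log axes at the 7 control time points for genes of 6 groups; each point is the mean of 3 libraries and the shaded band is the step from P4 to A1. Cpr64Aa, the muscle genes and ftz-f1 have their highest mean at P4, TwdlT and resilin at P3 and Acp1 at A1, while gut enzymes and male secretions rise between P4 and A1.

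Of 26 trypsin and Jonah protease genes, 23 rose and none fell, while 1 was called lower without P4 replicate 1, P4 replicate 2 or mutant P1 replicate 1. Their median log2 fold change was 7.63, and the summed level went from 64.7 ± 24.3 to 2655 ± 1262 CPM. alphaTry was at 3.23, 5.14 and 7.60 CPM in the P4 libraries and 598, 555 and 1012 CPM in the A1 libraries. A1 replicate 3 was highest, as it was for all 26 of these genes (136-fold higher; log2 fold change 7.09, SE 0.31, adjusted p = 1.2e-17). Jon65Aiv stood at 0.179, 0.381 and 1.06 CPM in the P4 libraries and 179.7, 170.4 and 366 CPM in the A1 libraries (log2 fold change 8.80, SE 0.51, adjusted p = 4.0e-15). Both had been abundant at WPP, with 294 and 741 CPM, and were under 2 CPM from P1 to P3. Jon99Ciii had no count at P4 and 69.7, 57.5 and 244 CPM in the A1 libraries, at least 643-fold higher, and Jon99Fii had none at P4 and 89.7, 77.7 and 203 CPM at A1. Trypsin, Jonah, amylase and lysozyme genes occur as near-identical copies, so the split of reads between copies is uncertain.

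All maltase and amylase genes but 1 rose (13 of 14, median log2 fold change 5.74). Amy-p, an amylase, was at 6.46, 6.47 and 12.7 CPM in the P4 libraries and 466, 402 and 862 CPM in the A1 libraries (67.6-fold higher; log2 fold change 6.09, SE 0.35, adjusted p = 2.3e-15). Mal-A1, a maltase, stood at 1.26, 1.33 and 4.44 CPM in the P4 libraries and 350.3, 319.9 and 319 CPM in the A1 libraries (log2 fold change 7.17, SE 0.46, adjusted p = 6.0e-13), and Mal-A7, Mal-A8 and Mal-A6 rose from 0.183 to 98.1 CPM, 0.320 to 65.7 CPM and 5.29 to 204 CPM. Mal-A5 was the gene not called (log2 fold change -0.19, adjusted p = 0.364). Among the lysozymes, which digest bacterial walls in the gut, 5 of 7 rose and 2 fell, while 1 was called lower without P4 replicate 3, in the fit on the 6 libraries or with P4 replicate 1 alone. LysP went from 0.0704 to 14.2 CPM, whereas LysS fell from 3.84 to 0.0680 CPM. The lipase gene mag rose from 0.394 to 57.2 CPM (log2 fold change 7.13, SE 0.54, adjusted p = 3.3e-10), and CG6295, an unnamed gene, had no count at P4 and 126 CPM at A1.

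Immune genes rose in a restricted set. Of 46 genes for antimicrobial peptides, bomanins and recognition proteins, 22 rose and 5 fell. The bomanins, short secreted peptides induced by the Toll pathway, made up the largest changes. CG15067 (named BomBc2 in the annotation) had no count at P4 and 230.0, 249.5 and 181 CPM at A1, at least 1143-fold higher, and its level at A6 was 62.1 CPM. CG16836 (BomT2) also had no count at P4 and 65.1, 68.1 and 70.2 CPM at A1. CG15068 (BomS6) and CG18107 (BomS4) rose from 0.120 to 94.5 CPM and from 0.0598 to 48.2 CPM. Of the classic inducible peptides, CecA1, a cecropin, rose from 2 counts at P4 to a mean of 12.9 CPM at A1. Drs, drosomycin, fell from 73.1 to 35.2 CPM, a call lost without P4 replicate 3 (adjusted p = 0.0997), without A1 replicate 3 (adjusted p = 0.0758) and with P4 replicate 1 alone (adjusted p = 0.388). DptA, Mtk and Dro were not called, with log2 fold changes of -0.89, 0.08 and -1.66, while Dro was called lower when the fit held only the 6 libraries (adjusted p = 0.00457) or the 21 control libraries (adjusted p = 0.028). The peptidoglycan recognition genes PGRP-SB1 and PGRP-SC2 rose from 1.49 to 25.4 CPM and from 1.77 to 17.003 CPM. With P4 replicate 1 alone 17 genes were called higher and 2 lower, and 3 were lower without P4 replicate 3 or A1 replicate 3.

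Genes of the male accessory gland rose almost without exception. Of 56 seminal fluid genes, 55 rose, none fell, and the median log2 fold change was 3.82. Their summed level was 732, 512 and 272 CPM in the P4 libraries and 5835, 5694 and 8859 CPM in the A1 libraries. At P4 the sum was highest in replicate 1 and lowest in replicate 3, the order of lncRNA:roX1 (456, 365 and 207 CPM). Of these genes 51 were called higher with P4 replicate 1 alone. Sfp87B had 1 count over the P4 libraries and 592, 621 and 978 CPM at A1, a ratio of counts of 11351-fold (95% exact interval 2037 to 448380). Sfp60F and Acp95EF rose from 0.257 to 423 CPM and from 6.92 to 431 CPM. Acp26Aa, the ovulation-inducing protein ovulin, was at 10.2, 5.52 and 1.69 CPM in the P4 libraries and 231, 211 and 316 CPM in the A1 libraries (log2 fold change 5.41, SE 0.34, adjusted p = 8.2e-14). SP, the sex peptide, rose from 1.07 to 61.6 CPM.

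Of 5 genes listed for the ejaculatory bulb and duct, 3 rose and 1 fell. Ebp, a protein of the ejaculatory bulb, was at 2.51, 1.14 and 0 CPM in the P4 libraries and 1904, 1756 and 2718 CPM in the A1 libraries (log2 fold change 10.68, SE 0.44, adjusted p = 1.3e-18). EbpII had no count at P4 and 466, 443 and 723 CPM in the A1 libraries, at least 2821-fold higher. At A6 the means were 5098 and 1554 CPM. EbpIII fell from 1349.7 to 721 CPM. Anp, andropin, an antibacterial peptide of the ejaculatory duct, had no count at P4 and 177, 168 and 317 CPM at A1, at least 1144-fold higher. Other genes with no count at P4 were CG16826 at 414, 461 and 758 CPM in the A1 libraries, at least 2823-fold higher, and Sfp24Bb, Obp51a, lcs and CG7916 with A1 means of 263, 177, 167 and 117 CPM.

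Testis genes did not pass the test in this step. None of 31 was called by edgeR, none reached an unadjusted p under 0.05, and DESeq2 called none; their median log2 fold change was 0.34. The fit on the 6 libraries alone called 3 higher, and the fit on the 21 control libraries and the one without mutant P1 replicate 1 called 1 each. Of 6 genes of the female germ line, 4 fell: osk, with 11, 50 and 144 counts in the P4 libraries and none at A1, grk (40.02 to 15.7 CPM), vas (9.96 to 4.27 CPM) and nos (1.89 to 0.706 CPM). The vas level was 4.48, 9.13 and 16.3 CPM in the P4 libraries and 4.40, 3.47 and 4.95 CPM at A1, and it was not called without P4 replicate 3 (adjusted p = 0.146). The nos call was lost without P4 replicate 3 (adjusted p = 0.153), without A1 replicate 1 (adjusted p = 0.085) and with DESeq2 (adjusted p = 0.0575). CG31862, an unnamed gene, was at 32.1, 127 and 238 CPM in the P4 libraries, in the order of osk, and had a single count over the A1 libraries. The germ line list had 2 genes called lower with P4 replicate 1 alone or without P4 replicate 3, and 1 in the fit on the 6 libraries.

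Muscle genes, which held a large part of all counts at P4, fell. Of 30 genes for contractile and structural proteins, 28 fell and 2 rose, with a median log2 fold change of -1.17. Their sum was 178720 CPM at P4 and 78224 CPM at A1. Mhc, myosin heavy chain, was at 34366, 36871 and 40850 CPM in the P4 libraries and 15907, 15019 and 13258 CPM in the A1 libraries (2.54-fold lower; log2 fold change -1.34, SE 0.17, adjusted p = 1.0e-07). Its means had climbed from 3036 CPM at P2 to 19307 at P3, and fell to 1994 at A6. Per length, in the deposited FPKM, the P4 mean of Mhc was 5610 ± 400.5, that of Act88F 9739 ± 1299 and that of Mlc2, a myosin light chain, 11042 ± 858. The fold changes of members ranged widely. The actins Act57B and Act87E fell by 6.86-fold and 5.41-fold, and Act88F, the actin of the indirect flight muscle, by 1.84-fold, from 13245 ± 1920.2 CPM at P4 to 7197 ± 874 CPM at A1. TpnC73F, a troponin C, fell from 1092 ± 70.6 CPM at P4 to 69.1 ± 3.63 CPM at A1 (15.8-fold; log2 fold change -3.98, SE 0.17, adjusted p = 1.8e-18). The flight muscle troponin C gene TpnC4 had a log2 fold change of -0.45 (adjusted p = 0.0264), a call lost under DESeq2's size factors (adjusted p = 0.0683) and without P4 replicate 2 or 3 or A1 replicate 1 or 3 (adjusted p from 0.0637 to 0.106). The risers were tn, a TRIM protein that maintains the sarcomere, and Argk, arginine kinase, with log2 fold changes of 0.70 and 0.42. Argk was not called without P4 replicate 1 (adjusted p = 0.0501) or A1 replicate 3 (adjusted p = 0.179).

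Ribosomal protein genes fell together by small amounts. Of 88 genes of the cytosolic ribosome, 80 fell and none rose, with a median log2 fold change of -0.43. RpL14, for example, was at 620.4, 695 and 746 CPM in the P4 libraries and 442, 444 and 478 CPM in the A1 libraries (log2 fold change -0.60, SE 0.09, adjusted p = 2.5e-06). The number called was 22 with P4 replicate 1 alone. Of 73 genes of the mitochondrial ribosome, 61 fell and none rose, with a median of -0.73, and 44 were called with P4 replicate 1 alone. mRpL37 fell from 30.5 to 14.4 CPM and mRpL1 from 36.8 to 17.8 CPM.

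Genes of mitochondrial energy production moved less. In the tricarboxylic acid cycle 11 of 18 genes fell and none rose (median log2 fold change -0.35). Fum1, fumarase, was at 680.3, 809.5 and 929 CPM in the P4 libraries and 493, 489 and 491 CPM in the A1 libraries (log2 fold change -0.72, SE 0.10, adjusted p = 5.8e-07). In this cycle 3 members were called with P4 replicate 1 alone. Of 63 nuclear genes for the respiratory chain and ATP synthase, 19 fell and 1 rose, with a median of -0.18. ATPsynbeta and ATPsynC, ATP synthase subunits, fell from 6941 to 5424 CPM and from 6466 to 4757 CPM, and ND-B8, a complex I subunit, rose from 4.74 to 28.7 CPM. The number depended on single libraries and on scaling: 10 were called lower under DESeq2's size factors, 12 with the deposited factors or DESeq2, 4 in the fit on the 6 libraries, 10 without P4 replicate 2, 3 without P4 replicate 3, 9 without A1 replicate 1, 10 without A1 replicate 2 and 0 with P4 replicate 1 alone. Of 12 genes encoded in the mitochondrial genome, only mt:ND2 was called (97.8 to 57.8 CPM; adjusted p = 0.0134), and it was not called without P4 replicate 2 (adjusted p = 0.0681) or A1 replicate 2 (adjusted p = 0.0505). With P4 replicate 1 alone the log2 fold change of mt:ND2 was -0.56.

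In glycolysis 9 of 14 genes rose and 1 fell, with a median log2 fold change of 0.44. The number that fell was 2 without P4 replicate 1 and 0 without any 1 of the other 5 libraries. The largest rise was that of Ldh, lactate dehydrogenase, at 15.1, 15.4 and 17.3 CPM in the P4 libraries and 73.7, 77.3 and 68.7 CPM in the A1 libraries (log2 fold change 2.20, SE 0.29, adjusted p = 1.5e-07). Hex-A, the hexokinase of the first step, rose from 189 to 346 CPM, Pgm from 228 to 369 CPM and PyK, pyruvate kinase, from 904 to 1252 CPM. Pfk, phosphofructokinase, was the gene that fell (1162 to 715 CPM), a call lost without any 1 of P4 replicates 2 and 3 and the A1 replicates (adjusted p from 0.0569 to 0.0709). In glycogen and trehalose metabolism 6 of 9 rose and none fell, at each of the 14 alternative settings as well. AGBE, the glycogen branching enzyme, was at 108, 119.5 and 148 CPM in the P4 libraries and 538, 577 and 432 CPM in the A1 libraries (4.13-fold higher; log2 fold change 2.05, SE 0.16, adjusted p = 4.2e-12), and its A6 mean was 116 CPM, back near the P4 level. UGP, which makes the activated sugar for glycogen, rose from 156 to 579.5 CPM. Tps1, the trehalose synthase, stood at 109, 184 and 258 CPM in the P4 libraries and 661, 681 and 708 CPM in the A1 libraries (log2 fold change 1.90, SE 0.22, adjusted p = 2.0e-08), and the trehalose transporter Tret1-1 rose from 145 to 371 CPM.

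Of 16 fat synthesis genes, 12 rose and 1 fell, with a median log2 fold change of 0.73. FASN1, the fatty acid synthase of the fat body, was at 86.98, 102 and 106 CPM in the P4 libraries and 508, 526 and 661 CPM in the A1 libraries, with close libraries and no overlap (5.75-fold higher; log2 fold change 2.52, SE 0.12, adjusted p = 6.7e-18), and at 1189 CPM at A6. FASN3, a second fatty acid synthase, rose from 4.43 to 182 CPM. It had been at 311 CPM at WPP. FASN2 was the gene that fell (401 to 287 CPM), a call lost under DESeq2's size factors (adjusted p = 0.0583) and without P4 replicate 2 or 3 or A1 replicate 1 or 2 (adjusted p from 0.0532 to 0.139). ACC, acetyl-CoA carboxylase, rose from 188 to 485 CPM, and CG4753 (Agpat4), an acyltransferase of fat synthesis, from 5.15 to 70.5 CPM. Lipid droplet genes were split: bmm, the main fat lipase, and Lsd-2, a droplet coat protein, rose with log2 fold changes of 1.10 and 0.46, and the coat protein gene Lsd-1 fell from 395 ± 25.8 CPM at P4 to 139 ± 9.29 CPM at A1 (log2 fold change -1.50, SE 0.25, adjusted p = 8.4e-06). In fatty acid oxidation 2 of 12 rose and 2 fell, 16.7% each, beside 16.2% and 22.7% of all genes. These counts ranged from 1 to 5 and from 0 to 2 over the alternative settings. Adh, alcohol dehydrogenase, was among the largest rises in level, at 730.3, 1002 and 777 CPM in the P4 libraries and 4622, 5012 and 5052 CPM in the A1 libraries (5.85-fold higher; log2 fold change 2.55, SE 0.26, adjusted p = 1.5e-09). Cyp4g1, the P450 enzyme of hydrocarbon synthesis in oenocytes, rose from 1459 to 3012 CPM and was at 17243 CPM at A6.

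Of 6 genes for larval serum proteins and fat body proteins, 5 fell, with a median log2 fold change of -2.42. Lsp2, a storage protein, was at 1069, 855 and 689 CPM in the P4 libraries and 195, 157 and 154 CPM in the A1 libraries, without overlap (log2 fold change -2.37, SE 0.28, adjusted p = 2.0e-08). Its control means fell at every step of the course, from 17601 CPM at WPP to 3181 at P3, 871 at P4, 168 at A1 and 14.1 at A6. Fbp1, a receptor for storage proteins, fell from 768 ± 231 CPM at P4 to 116 ± 51.7 CPM at A1, and had no count at A6. Of 9 cell death genes 2 rose, the death inducers hid and rpr (23.2 to 41.004 CPM and 3.59 to 6.11 CPM), and 3 fell. The latter were the caspase Drice, the caspase adaptor Dark and the inhibitor Diap1, with log2 fold changes of -1.27, -1.30 and -0.46. The rpr call was lost without P4 replicate 1 or 2 or A1 replicate 1 or 3 (adjusted p from 0.0704 to 0.27). Of 20 autophagy genes 10 rose and none fell; Atg101, part of the initiating kinase complex, rose from 17.3 to 36.01 CPM and Atg17 from 58.9 to 86.8 CPM. Haemocyte genes fell in 6 of 12 cases and rose in none, while 1 was called higher with each other scaling, with DESeq2 and in the fits on the 6 or the 21 control libraries. Hml, hemolectin, was at 198, 285 and 398 CPM in the P4 libraries and 58.9, 60.8 and 86.1 CPM in the A1 libraries. The bacteria receptor eater fell from 54.3 to 7.17 CPM, and the type IV collagens Col4a1 and vkg from 1931 to 732 CPM and from 1234 to 450.4 CPM. NimC1, another haemocyte marker, was not called (log2 fold change 0.62, adjusted p = 0.101), but it was called higher with the deposited factors (adjusted p = 0.0293), in the fit on the 6 libraries (adjusted p = 0.0209) and in that on the 21 control libraries (adjusted p = 0.0438).

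Called cell cycle genes fell and none rose. The share called lower was 11.8% of the mitotic list and 38.9% of the replication list, beside 22.7% of all genes. Of 17 mitotic genes 2 fell and none rose. The phosphatase gene stg, which starts mitosis, was at 25.6, 25.7 and 23.9 CPM in the P4 libraries and 1.10, 1.63 and 2.15 CPM in the A1 libraries (15.4-fold lower; log2 fold change -3.92, SE 0.20, adjusted p = 7.9e-17), while Cdk1 fell from 7.72 to 4.30 CPM, a call lost without A1 replicate 3 (adjusted p = 0.0952), in the fit on the 6 libraries (adjusted p = 0.087) and with P4 replicate 1 alone (adjusted p = 0.177). CycA, CycB and polo were not called. Of 18 replication genes 7 fell; 2 were called with P4 replicate 1 alone, in the fit on the 6 libraries or without A1 replicate 3, 3 under DESeq2's size factors or without P4 replicate 3, and 4 with the deposited factors, with DESeq2 or without A1 replicate 1. Mcm5, a subunit of the replicative helicase, was at 3.23, 7.99 and 8.45 CPM in the P4 libraries and 4.40, 2.86 and 1.72 CPM in the A1 libraries, and its groups overlapped. Its call was lost without A1 replicate 3 (adjusted p = 0.0592) and in the fit on the 6 libraries (adjusted p = 0.0794), and with P4 replicate 1 alone the log2 fold change was -0.11 (adjusted p = 0.98).

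Neuronal genes fell. All 15 tested were called lower, with a median log2 fold change of -0.77, and 12 with P4 replicate 1 alone. The active zone genes brp and Rim fell from 256 to 133 CPM and from 126 to 48.98 CPM. Rab3, a vesicle protein, was at 140.4, 145 and 154 CPM in the P4 libraries and 76.97, 72.6 and 75.1 CPM in the A1 libraries (log2 fold change -0.97, SE 0.08, adjusted p = 2.3e-12). The smallest falls included elav, a general neuron marker (-0.38 on the log2 scale, adjusted p = 0.0302), which was not called under DESeq2's size factors (adjusted p = 0.129) or without P4 replicate 2 or A1 replicate 2 or 3 (adjusted p from 0.0526 to 0.164). Of 10 clock genes, 5 rose, none fell and 5 were not called. The repressor vri was at 10.4, 13.3 and 10.8 CPM in the P4 libraries and 54.8, 53.5 and 78.8 CPM in the A1 libraries (log2 fold change 2.44, SE 0.26, adjusted p = 2.4e-09), tim at 109 ± 12.8 CPM at P4 and 204 ± 19.8 CPM at A1, and cry, the light receptor of the clock, rose from 42.03 to 90.9 CPM. The labels give no time of day for the collections.

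In the phototransduction and eye pigment lists more genes fell than rose. Of 28 phototransduction genes, 12 fell (42.9%, beside 22.7% of all genes). Another 5 rose (17.9%), near the share of all genes (16.2%). The number that rose was 3 without P4 replicate 1 and also with that library alone. The structural genes eys and chp, which shape the light-sensing membranes, fell from 342 to 128 CPM and from 690.0 to 323 CPM. The corneal lens gene retinin rose, at 0.538, 6.28 and 9.08 CPM in the P4 libraries and 230.5, 219 and 267 CPM in the A1 libraries (45.04-fold higher; log2 fold change 5.52, SE 0.39, adjusted p = 4.5e-13). The main opsin ninaE was not called (1974 ± 214 CPM at P4 and 1726 ± 135 CPM at A1; adjusted p = 0.794). Rh6 and Rh5, the opsins of the yellow and pale ommatidia, had log2 fold changes of 1.03 and -0.93, and Rh5 was not called with P4 replicate 1 alone (adjusted p = 0.175). Of 19 eye pigment genes 7 fell and 1 rose. The number that fell was 4 without P4 replicate 2 or A1 replicate 2 and 3 with P4 replicate 1 alone, and 2 rose without P4 replicate 3 or with the other scalings. The gene se, sepia, an enzyme of red pigment synthesis, fell from 308 ± 20.9 CPM at P4 to 26.8 ± 5.13 CPM at A1 (log2 fold change -3.52, SE 0.61, adjusted p = 1.7e-05).

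Odorant-binding proteins, carriers of small molecules in the fluid of sense organs and in other tissues, rose in 20 and fell in 6 of 37 cases. Obp56g rose from 6.29 to 443 CPM, Obp57c from 0.845 to 76.1 CPM and Obp99c from 279.9 to 1058 CPM. The receptors of smell and taste were mostly at a few CPM or less, and of 26 tested 1 rose and 1 fell. The first, Gr59f, was not called without P4 replicate 1 (adjusted p = 0.108) or A1 replicate 3 (adjusted p = 0.122), and the second, Ir25a, without P4 replicate 3 (adjusted p = 0.107) or A1 replicate 2 (adjusted p = 0.0526).

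Of 78 cytochrome P450 genes 27 rose (34.6%) and 17 fell (21.8%), beside 16.2% and 22.7% of all genes. Only the rises exceeded the share of all genes. The median log2 fold change was 0.22, and 0.53 with P4 replicate 1 alone. The extremes were Cyp313a1, at 0, 0 and 1.06 CPM in the P4 libraries and 393, 413 and 366 CPM in the A1 libraries, and Cyp304a1, at 116, 149 and 216 CPM in the P4 libraries and 0.880, 1.02 and 2.80 CPM in the A1 libraries. UDP-glycosyltransferases, which attach sugars to foreign compounds, rose in 10 and fell in 2 of 29 cases (1 fell without P4 replicate 1 or in the fit on the 6 libraries), with CG30438 (Ugt50B3) going from 9.95 to 103 CPM. Of 35 glutathione S-transferases 5 rose and 8 fell, shares of 14.3% and 22.9% that lie near those of all genes. GstS1 was among those that fell (4491 to 2719 CPM). The number that fell was 4 with either other scaling or without P4 replicate 2 or 3, 5 with DESeq2 or without A1 replicate 1 or 2, and 2 with P4 replicate 1 alone, and 3 rose without P4 replicate 3 or with P4 replicate 1 alone. Genes listed for the Malpighian tubules, the fly's kidney, were measured in whole animals. Their summed level was 600 ± 92.5 CPM at P4 and 441 ± 36.5 CPM at A1. Of them Uro, urate oxidase, was at 0.179, 0 and 1.06 CPM in the P4 libraries and 42.9, 30.6 and 83.96 CPM in the A1 libraries (log2 fold change 7.01, SE 0.55, adjusted p = 8.0e-12). The potassium channel gene Irk1 and the phosphate transporter NaPi-T rose from 28.5 to 71.2 CPM and from 8.06 to 62.7 CPM, and the water channel gene Prip fell from 436 to 38.2 CPM (log2 fold change -3.51, SE 0.18, adjusted p = 5.1e-17).

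Heat shock and hormone genes completed the lists. In the heat shock list 8.70% rose and 30.4% fell, beside 16.2% and 22.7% of all genes. For the metabolic hormone list these shares were 23.1% and 15.4%. Of 23 heat shock genes 7 fell and 2 rose; 4 fell with P4 replicate 1 alone. Hsp67Bc, a small heat shock protein, fell from 23.3 to 2.49 CPM, and Hsc70-3, the chaperone of the endoplasmic reticulum, rose from 428 to 768 CPM. The inducible gene Hsp70Ab was not called (54.1 ± 7.35 CPM at P4 and 31.3 ± 14.1 CPM at A1), although it was called lower in the fit on the 6 libraries (log2 fold change -0.77, adjusted p = 0.0446). Of 13 metabolic hormone genes 3 rose and 2 fell, and 1 rose with P4 replicate 1 alone. Ilp6, the insulin-like peptide of the fat body, was at 66.001, 58.2 and 63.998 CPM in the P4 libraries and 21.8, 22.9 and 22.2 CPM in the A1 libraries (log2 fold change -1.49, SE 0.20, adjusted p = 3.0e-07), and Ilp7 fell from 3.01 to 0.643 CPM. The receptors AkhR, for adipokinetic hormone, and InR, for insulin, rose with log2 fold changes of 0.74 and 0.62.

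Several of the largest changes came from neighbouring genes. Runs were sought of at least 5 called genes at most 10000 bases apart, each changed by at least 3 on the log2 scale in the same direction, and 8 were found. On chromosome 3L (dm6, 4200825 to 4216414) a run of 5 genes from CG15005 to Cpr64Ad fell, with a median log2 fold change of -8.72. Another on 3L (19464049 to 19476423) held 7 genes from CG14095 to CG32213 that fell, with a median of -9.57. CG14095 was at 31.4, 42.1 and 27.5 CPM at P4 and CG32214 at 26.01, 28.2 and 19.6 CPM, and neither had a count at A1. A further run on 3L (16269392 to 16285396) held 7 falling genes from CG13068 to CG13047. Rising runs included 8 genes around SP on 3L (13283663 to 13301922), of which 4 are annotated as long non-coding RNAs, 5 genes from CG33306 to CG7968 on 2L (13842888 to 13850329) and 5 from CG10513 to CG31104 on 3R (25275790 to 25286974). The others were the 9 genes of the bomanin cluster from IM23 to CG15068, with a median of 9.14, and the 6 trypsin genes from thetaTry to deltaTry, with a median of 7.46. Trypsins, bomanins and cuticle genes in such rows can be similar in sequence, so reads can be shared among them. Many named genes also overlap exons of another gene, for example ERR (Uxs), lncRNA:roX1 (ec), rk (NimC2), Kr-h1 (CG45075), Mal-A1 (Cyp4e1), UGP (PGRP-LF), Tps1 (CG3652), Adh (Adhr), Fum1 (Fum2), vas (solo), ATPCL (Tmem131) and the pair CG15067 and CG18107, and the strand setting of the counting is not given in the sources used here, so these values are uncertain.

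Finally, the step was compared with the same step in the ERR mutant, as the interaction of genotype and time point. It was called for 99 of 13672 genes (0.724%). In 80 of them the mutant step was lower than the control step and in 19 it was higher, and 71 were also called in the control step. The pentose phosphate pathway, a source of NADPH and pentose sugars, held 5 of these genes among its 7 members. In controls 3 of its genes rose and 1 fell. The one that fell, Pgd (232 to 172 CPM; adjusted p = 0.0492), was not called by DESeq2 (adjusted p = 0.0874), under the other scalings, without a filter, in the fit on the 6 libraries, without P4 replicate 2 or 3 or without any A1 replicate (adjusted p from 0.0511 to 0.387). Taldo, transaldolase, rose in controls, with 99.9, 124 and 136 CPM in the P4 libraries and 278, 273 and 235 CPM in the A1 libraries (log2 fold change 1.13, SE 0.15, adjusted p = 1.6e-07). In mutants it stood at 78.5 ± 3.79 CPM at P4 and 51.8 ± 2.55 CPM at A1, a log2 fold change of -0.60 (adjusted p = 0.00148), and the difference between the steps was -1.73, SE 0.21, adjusted p = 1.6e-05. CG8036, a transketolase, had log2 fold changes of 0.39 in controls and -0.94 in mutants, a difference of -1.33, SE 0.17, adjusted p = 1.8e-05. Its control rise was not called without P4 replicate 1 (adjusted p = 0.0561) or A1 replicate 1 (adjusted p = 0.0577). Zw and Rpi, of the first and middle steps, were not called in controls (log2 fold changes -0.07 and 0.09), while their mutant log2 fold changes were -1.18 and -0.78.

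AGBE rose in controls as given above, and in mutants it was at 86.99 ± 12.4 CPM at P4 and 92.8 ± 19.97 CPM at A1 (log2 fold change 0.09, adjusted p = 0.644; difference -1.95, SE 0.23, adjusted p = 6.9e-06). ATPCL, which makes acetyl-CoA for fat synthesis, had log2 fold changes of 0.76 in controls and -0.12 in mutants (difference -0.88, SE 0.15, adjusted p = 0.00161). The unnamed gene CG9914, with the smallest interaction p, was at 130.4 ± 18.1 CPM at P4 and 329.6 ± 30.1 CPM at A1 in controls and had a log2 fold change of -0.70 in mutants. A few accessory gland genes had the larger step in mutants. Acp36DE was at 119, 76.1 and 43.7 CPM in control P4 libraries and at 12.53, 12.2 and 13.95 CPM in mutant P4 libraries (difference of steps 2.56, SE 0.41, adjusted p = 7.1e-04). In the same mutant P4 libraries lncRNA:roX1 was at 258, 239.8 and 244 CPM and osk at 15.7, 20.4 and 23.7 CPM, so the mutant P4 libraries were closer to each other than the control P4 libraries in both. The part of the sexes in these differences was not tested. The number of interaction genes was 42 without control P4 replicate 1, 60 without replicate 2 and 216 without replicate 3, and it was 56, 52 and 154 without A1 replicates 1, 2 and 3. The genotypes also differ in hsFLP, whose part cannot be told apart from that of ERR.

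**Figure D5:**
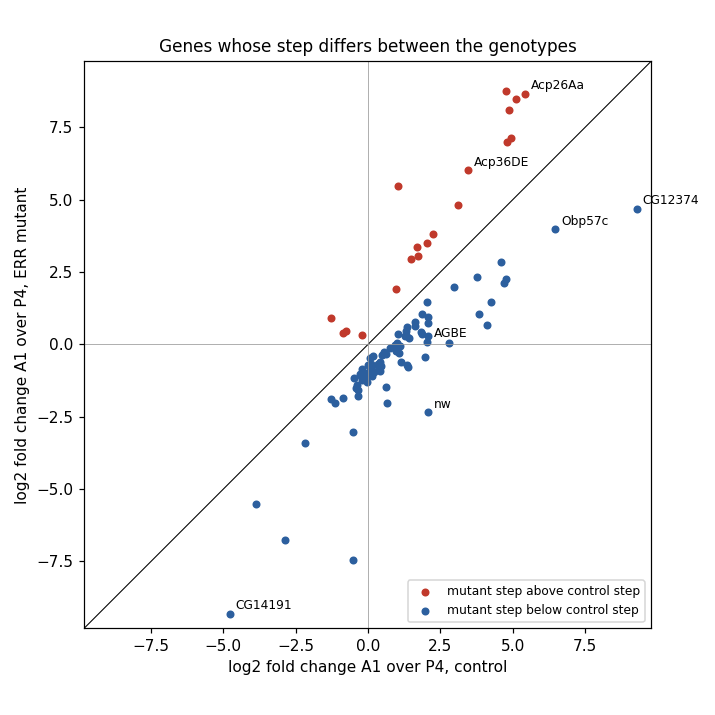
Log2 fold change from P4 to A1 in controls (horizontal) and in ERR mutants (vertical) for the 99 genes with a called interaction; the diagonal marks equal steps, and genes were chosen for lying off it. For 80 genes the mutant step lies below the control step and for 19 above it.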

How the data were processed

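RNA from whole flies was purified with a column kit and DNase, and poly(A) libraries were made with a stranded kit, per the labels' protocols. The authors deposited estimated counts per gene, already whole numbers, for 15038 genes, together with FPKM values and a normalized signal per gene. The submitters' processing notes name cutadapt 1.16, STAR 2.7.0f, RSEM 1.3.1, DESeq2 1.22.2 and the build dm6. Which annotation, filters and strand setting they used is not given in the sources used here.

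Counts as deposited for all 42 libraries in 14 groups were fitted with edgeR 4.0.16 in R 4.3.3 (TMM scaling, filterByExpr, robust quasi-likelihood test, 28 residual degrees of freedom), leaving 13672 genes. Calls used Benjamini-Hochberg adjusted p under 0.05 over all genes tested, and the genotype difference was an interaction term of the same fit. Each SE was derived from the test, as the absolute log2 fold change divided by the square root of the F statistic. The deposited normalized signal served only as alternative scaling. FPKM served only for levels per length. A gene with no count in a group was set at a floor of 3 counts over that group. Intervals on count ratios are exact at the 95% level and cover counting error only.

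Members of a group were compared by a chi-square statistic of their counts, which was between 4.37 and 25.0 per gene, so none agreed within sampling noise. Settings tried were DESeq2 1.42.0 and its size factors, the deposited factors, no filter, the 6 libraries or the 21 control libraries alone, each of the 6 libraries left out in turn, and mutant P1 replicate 1 left out. The test was also checked on simulated counts. The 6 libraries, picked by their labels, and the gene lists were chosen with earlier results of these data known. Named genes are ERR, the 12 strongest rises and 12 strongest falls among called genes with non-overlapping groups and a mean CPM of 5 or more, the 6 largest rises and falls of mean CPM, up to 4 genes of each list by adjusted p, and 5 interaction genes. Other genes, among them ple, Ddc, kkv, Cht5, e, b, Burs, CCAP-R, Hr3, Hr4, Met, jhamt, Jhe, Mal-A1, CecA1, Drs, PGRP-SB1, SP, Act88F, TpnC4, tn, Argk, Pfk, FASN2, rpr, elav, ninaE, Hsp70Ab, Zw, Rpi, ATPCL and Acp36DE, were named after their values were seen.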

Additional observations from a re-analysis of the deposited data

Results flagged for a closer look

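Among the genes named here, 15 had a step from P4 to A1 that differed between ERR mutants and controls by the interaction term, with adjusted p under 0.05. Values are the mutant minus the control log2 step. The step was smaller, or a fall in place of a rise, in mutants for Obp57c (-2.50), CG9914 (-2.04), AGBE (-1.95), Taldo (-1.73), CG8036 (-1.33), CG10178 (-1.19), CG5171 (-1.18), Irk1 (-1.01), ATPCL (-0.88) and AANAT1 (-0.58). For Obp57c, an odorant-binding protein, the mutant log2 fold change was 3.98 beside 6.47 in controls, so it rose in both. AANAT1 also rose in both, by 1.45 in mutants and 2.04 in controls.

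In the pentose phosphate pathway Zw (-1.11), Pgd (-1.06) and Rpi (-0.87) also had the lower mutant step. The 3 control P4 libraries held 173, 233 and 291 CPM of Pgd and the A1 libraries 178, 173 and 164 CPM, so replicate 1 overlapped the A1 group. Its control fall (adjusted p = 0.0492) was lost with every other scaling, with DESeq2, without a filter, in the fit on the 6 libraries, without P4 replicate 2 or 3 and without any A1 replicate (adjusted p from 0.0511 to 0.387), and with P4 replicate 1 alone (adjusted p = 1.0).

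The seminal fluid genes Acp26Aa (3.24) and Acp36DE (2.56) had the larger rise in mutants. Control P4 libraries with more lncRNA:roX1 also had more of both RNAs, at 10.2, 5.52 and 1.69 CPM of Acp26Aa and 119, 76.1 and 43.7 CPM of Acp36DE, and the part of the sexes was not tested. No group had enough libraries for a check for single outlying samples.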

How the results depend on the processing

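Over 14 alternatives, 263 genes gave 3669 log2 values, of which 3507 kept their direction and side of the threshold, 127 lost and 7 gained a call and 28 changed sign. For 211 genes every alternative kept both. Calls numbered from 3656 to 5560 against 5322, and 1856 genes were called lower with P4 replicate 1 alone against 3102. The interaction was called for 99 genes, for 172 with DESeq2, for 272 with P4 replicate 1 alone and for 42 to 216 when 1 library was left out. The cause was not tested. The fits on the 6 libraries and on the 21 control libraries hold no mutant A1 group and give no interaction. Of 106 counts over lists, 63 stayed within 1.5 times at every alternative.

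None of the genes that changed sign was called. Under DESeq2's size factors, the deposited factors and DESeq2 the values were 0.041, 0.032 and 0.036 for Eh, 0.049, 0.037 and 0.050 for ETH and 0.017, 0.0084 and 0.018 for Zw. lncRNA:roX2 was at 0.049 with the deposited factors. Leaving out 1 library gave values from -0.87 to 0.29 for Eh, -0.17 to 0.12 for ETH, -0.29 to 0.23 for Zw, -0.25 to 0.27 for lncRNA:roX1, -0.39 to 0.45 for lncRNA:roX2, -0.028 to 0.43 for betaTub85D, -0.10 to 0.15 for Arr2 and -0.22 to 0.41 for Mtk. With P4 replicate 1 alone the values were -0.40 for lncRNA:roX1, -0.17 for betaTub85D, 0.29 for Eh, 0.49 for Zw and -0.020 for Rpi. Of calls lost there, InR kept its size (0.72, adjusted p = 0.0503), while Diap1 (-0.27, adjusted p = 0.061), ATPsynbeta (-0.17, adjusted p = 0.461) and ATPsynC (-0.28, adjusted p = 0.0926) were smaller. Of muscle structure genes 1 was called higher without P4 replicate 1 or A1 replicate 3, against 2 with all libraries, and of lipid droplet genes 2 were called lower without A1 replicate 1, against 1.

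No paired analysis was possible because the replicate numbers follow accession order and pair no libraries. With 3 libraries a group and 4670549 to 6703602 counts a library, values of genes with a few counts are the least precise.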

Other observations

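Genes of epithelial layers and oenocytes outside the main cuticle families were also followed. Of 23 tested Osiris genes, transmembrane proteins of cuticle-making cells, 3 fell and none rose, and 2 rose in the fit on the 21 control libraries. Osi24 fell from 5.70 to 3.24 CPM, while Osi9, at 8.71 and 3.48 CPM, was not called (adjusted p = 0.0528). Of 8 tested Tweedle genes 1 fell and 1 rose. FarO, a fatty acyl reductase of oenocytes, fell from 84.2 to 20.2 CPM as Cyp4g1 and its electron donor Cpr rose, so that 2 of 5 hydrocarbon genes rose and 1 fell. In the Malpighian tubule list 5 of 7 genes rose and 1 fell, and the potassium channel genes Irk2 and Irk3 rose with log2 fold changes of 1.29 and 1.24 beside 1.32 for Irk1. Drip, a second water channel gene, was not called (69.5 to 79.0 CPM).

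Of 7 opsin genes 1 rose and 1 fell, of 7 lipid droplet genes 3 rose and 1 fell, and of 5 genes of the ejaculatory bulb and duct 3 rose and 1 fell. Of 7 dosage compensation genes, edgeR with TMM scaling and DESeq2 called none, none had an unadjusted p under 0.05 in edgeR, and edgeR with the deposited factors called 1 higher. Of 5 tested eggshell genes only Fcp3C was called, falling from 1.78 to 0.348 CPM, and none with P4 replicate 1 alone or in the fit on the 6 libraries, while 2 were called lower without P4 replicate 1. Yp3 was the 1 yolk protein gene tested and was not called (adjusted p = 0.444).

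The share of genes called lower was also counted by chromosome, with no test between chromosomes. On chromosome 4, 46 of 95 tested genes (48.4%) were lower and 3 higher, with a median log2 fold change of -0.248. On the X, 27.1% were lower, and on the other arms from 20.2% to 22.7%. With P4 replicate 1 as the only P4 library, 21 of the 95 genes on chromosome 4 (22.1%) were called lower, beside 15.4% on the X and 12.4% to 13.9% on the other arms.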
